A study of Mus musculus with 8 samples.

Results

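Peaks of H3K27ac, a histone H3 acetylation of active promoters and enhancers, were called from ChIP-seq of mouse primary neuronal cultures. The regions described here carried a peak in every MGE library and in no CTX library, with or without depolarisation. They were found by merging the peaks of all 8 lists that overlapped by at least 1 bp on chromosomes 1 to 19 and X and keeping merged regions with a peak in all 4 MGE lists and in none of the 4 CTX lists. There were 3041 such MGE-restricted regions among 113604 merged regions (2.68%), or 15.8% of the 19220 regions called in all 4 MGE lists. These regions were chosen by the peak lists themselves, so their presence in MGE lists and their absence from CTX lists are a description and no result. The mirror class, called in all 4 CTX lists and in no MGE list, held 5491 regions (4.83% of merged regions and 22.3% of the 24644 called in all 4 CTX lists).

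There were 4 groups of 2 libraries, MGE KCl, MGE unstimulated, CTX KCl and CTX unstimulated. The usual meaning of MGE is medial ganglionic eminence, and of CTX cortex. All cultures, the unstimulated ones included, were silenced overnight at 6 days in vitro with TTX at 1 µM, which blocks sodium channels, and D-AP5 at 100 µM, which blocks NMDA receptors. At 7 days the KCl cultures were depolarised with 55 mM KCl for 2 h, and the unstimulated cultures were left untreated. The source of all libraries is given as C57/BL6 embryos of embryonic day 16, while the CTX titles give day 14 and the cell type entry reads cortical neurons for MGE libraries too. Libraries are numbered as biological replicates 1 and 2, and the labels do not say what was kept separate, so the spread between them may be technical.

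The medial ganglionic eminence is a part of the embryonic ventral forebrain that gives rise to GABAergic interneurons, among them the parvalbumin and somatostatin classes of the cortex. The transcription factor NKX2-1 specifies it, and its target LHX6 and the factors SOX6 and SATB1 act in the interneurons that leave it, whereas cortical glutamatergic neurons use NEUROD, EMX and TBR1 factors. Acetylation at enhancers far from gene starts differs between cell types more than acetylation at promoters does, so such regions are a common way to describe the regulatory state of a culture.

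Peaks numbered 36035 to 49635 in MGE lists and 41537 to 66827 in CTX lists and covered 21.1 to 32.0 Mb and 23.5 to 44.7 Mb. Read depth is unknown, and acetylation too weak to be called leaves no peak, so a missing peak is not missing acetylation. Peaks at 17 MGE marker genes and 12 cortical ones served as a check of the labels, each region being assigned to the gene with the closest span, if within 100 kb. Values of a gene below are therefore over all regions assigned to it, up to 100 kb outside its span. Nkx2-1, Lhx6 and Lhx8 had no peak in any CTX list, and Neurod1, Neurod2 and Emx1 had none in any MGE list. The summed called length of the MGE markers was 2894 to 3112 bp per Mb called in MGE libraries and 1850 to 2070 in CTX libraries. That of the cortical markers was 418 to 483 in MGE and 628 to 1075 in CTX libraries. Single genes weighed heavily in these sums. Erbb4 had means of 850 bp per Mb called in MGE and 286 in CTX libraries, and Sox6 514 and 634. The cortical marker Cux2 had 360 in MGE and 176 in CTX libraries. In plain called length, not divided by the length of the list, only 10 of the 17 MGE markers had a higher mean in MGE lists, since Sox6, Satb1, Dlx1, Dlx2, Dlx6, Gad1 and Slc32a1 had more in CTX lists. Per Mb called, 12 of the 17 were higher in MGE lists, Dlx6 and Slc32a1 among them. Of the 12 cortical markers, 10 were higher in CTX lists on either scale. In cultures of mixed cells, fewer cells of a type and less acetylation per cell cannot be told apart.

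Most MGE-restricted regions lay far from gene starts, but a few lay over or beside one. Promoter windows of 18 genes overlapped such regions. The sequences of 4 of these genes are shown, as letters at which the regions meet a gene start. The 4 are a selection and do not stand for the rest, which include Acot10, Fuom, Mettl11b, Myadml2, Ptgr2 and Tecrl. Cbln4 is outside the rule by which genes were named. Lhx6 is the LIM homeodomain factor of MGE interneurons, Elavl2 encodes a neuronal RNA-binding protein, Cort encodes the interneuron peptide cortistatin, and Cbln4 encodes a secreted synapse organiser of the cerebellin family. Each line gives the 250 bases before a start from RefSeq on GRCm38.p6, which shares its coordinates with mm10, read 5′ to 3′ on the minus strand. They lie at chr2:36104061-36104310 for the third start listed for Lhx6, chr4:91399985-91400234 for Elavl2, chr4:149126764-149127013 for Cort and chr2:172043467-172043716 for Cbln4. Capitals mark TAATTA, a homeodomain core, and ACAAAG, a SOX core, on either strand.
Lhx6: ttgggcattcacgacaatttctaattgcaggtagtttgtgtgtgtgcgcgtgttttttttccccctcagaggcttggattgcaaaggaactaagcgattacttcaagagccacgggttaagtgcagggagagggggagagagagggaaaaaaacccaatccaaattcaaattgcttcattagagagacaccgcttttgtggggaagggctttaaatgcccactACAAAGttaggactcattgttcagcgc
Elavl2: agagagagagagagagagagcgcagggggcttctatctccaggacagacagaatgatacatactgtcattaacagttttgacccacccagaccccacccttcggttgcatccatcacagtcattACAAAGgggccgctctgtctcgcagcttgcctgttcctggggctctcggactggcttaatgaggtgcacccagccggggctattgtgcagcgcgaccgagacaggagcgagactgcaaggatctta
Cort: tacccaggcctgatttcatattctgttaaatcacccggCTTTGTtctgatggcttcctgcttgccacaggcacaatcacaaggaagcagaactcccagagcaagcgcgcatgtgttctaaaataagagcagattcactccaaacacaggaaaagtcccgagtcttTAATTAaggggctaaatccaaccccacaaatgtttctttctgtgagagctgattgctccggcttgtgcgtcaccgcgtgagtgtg
Cbln4: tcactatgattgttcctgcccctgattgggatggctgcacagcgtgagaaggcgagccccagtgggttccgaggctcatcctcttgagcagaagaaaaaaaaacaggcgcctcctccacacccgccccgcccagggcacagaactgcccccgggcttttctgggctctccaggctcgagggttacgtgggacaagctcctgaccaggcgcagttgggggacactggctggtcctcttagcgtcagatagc
The whole 300-base window from 250 bases before to 50 after the start lay inside an MGE-restricted region at Elavl2 and Cbln4, as did 296 bases of it at Lhx6 and 90 at Cort. ACAAAG stood before the start of Lhx6 and Elavl2, and in reverse, as CTTTGT, at Cort. TAATTA also stood in the Cort window, but outside the 90 bases that lay in the region. No searched motif stood in the Cbln4 window. In all, 20 windows of 18 genes overlapped 18 of these regions, and 9 windows lay whole inside one. Each window was searched whole, so a motif counted below can lie outside the region. This was so for TAATTA at Cort, CAAGTG at Nrxn3 and TGANTCA at Tecrl. Among these windows ACAAAG stood in 20%, against 16.8% of all 21045 windows, and TAATTA in 5% against 4.47%. CAAGTG, the NKX2-1 core, stood in 10% against 13%, TGCTGA, the MAF core, in 15% against 18.1%, TGANTCA, the AP-1 site, in 10% against 7.04%, and TGACGTCA, the CRE site, in 0 windows against 2.26%. Both strands were searched, and 2 pairs of windows at Tox2 and Fuom overlap, so their letters are counted again. With 20 windows, 1 window moves a share by 5 points.

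The region at Lhx6 spanned chr2:36102593-36104306. Its called length was 453 and 475 bp in MGE KCl libraries and 1246 and 1274 bp in MGE unstimulated libraries. Both KCl values lay below both unstimulated values, a pattern taken up again with the KCl comparison. The deposited fold enrichments there were low, at 1.79 and 1.59 in KCl and 1.70 and 1.69 in unstimulated libraries, and their mean rank within the lists was at the 0.095th percentile. Next to it, chr2:36104502-36105443 was called in 3 MGE lists, and was missing from MGE unstimulated library 2. The region chr2:36105708-36106162 went the other way, with 397 and 418 bp in KCl and 0 and 237 bp in unstimulated libraries. Over all regions assigned to Lhx6 the groups overlapped, at 1.97 and 1.7 kb in KCl and 2.7 and 1.51 kb in unstimulated libraries. A second MGE-restricted region at chr2:36065618-36067073 lay beyond the end of Lhx6, inside the span of Morn5. At Elavl2 the region over the start spanned chr4:91399285-91401136 and had 1213 and 1477 bp called in KCl and 1417 and 1373 bp in unstimulated libraries, so the groups overlapped. At Cort, 721 and 1063 bp were called in KCl and 910 and 594 bp in unstimulated libraries, and at Cbln4 286 and 616 against 507 and 529 bp. Neither separated the groups.

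**Figure D1:**
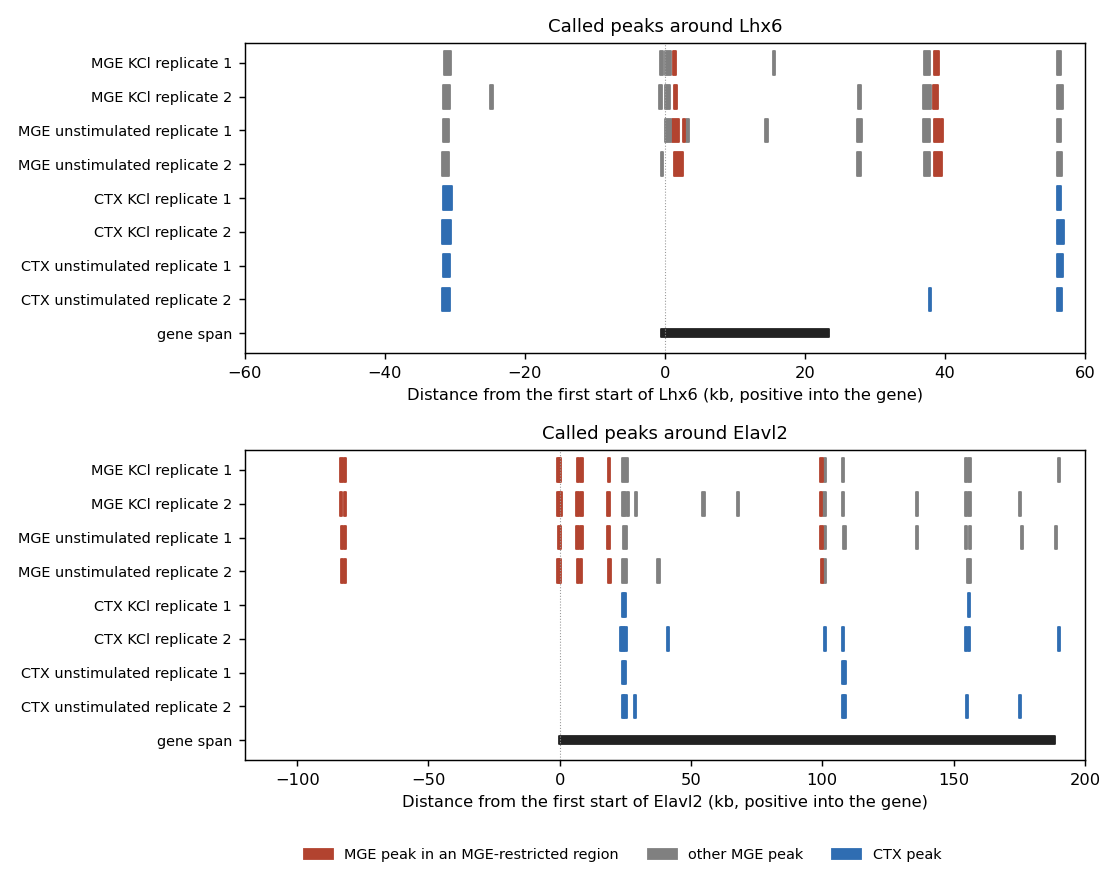
Called H3K27ac peaks around Lhx6 and Elavl2 in the 8 libraries, as bars along the distance from the first start of each gene (kb, positive into the gene); black bars are gene spans and very short bars are widened to be visible. All 4 MGE libraries have peaks in an MGE-restricted region just inside Lhx6 and at the start of Elavl2, where no CTX library has a peak.

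Many genes known for MGE interneurons had such a region. Of the 50 genes on the lists of MGE lineage factors, Dlx genes, GABA synthesis and transport and interneuron subtype markers, 21 (42%) had at least 1 region assigned, against 6.69% of 21631 protein-coding genes (1447 genes). These 21 genes held 47 of the 3041 regions. CTX-restricted regions were found at 14 of the 50 genes (28%), against 11.9% of all protein-coding genes. Long genes catch more regions: genes with an MGE-restricted region had a median span of 98.4 kb and all genes 17.3 kb, while the 50 listed genes had 24.9 kb. The lists were chosen with earlier results of these data known.

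Among MGE lineage factors, 7 of 18 genes had a region. Maf, a bZIP factor of MGE-derived interneurons with a span of only 3.64 kb, had 6 regions within 100 kb and no CTX-restricted one. Its regions held 4.46 and 5.47 kb of peaks in MGE KCl and 4.78 and 4.49 kb in MGE unstimulated libraries. The KCl and unstimulated values overlapped. Sox6, an HMG-box factor, had 7 MGE-restricted regions in a gene of 570 kb but also 5 CTX-restricted ones, and the called length over all regions assigned to it was lower in MGE libraries, at 12.8 ± 4.49 kb, than in CTX libraries, at 22.5 ± 8.63 kb (SD, n = 4). Tcf12, which encodes an E protein, had 2 regions, and Lhx6, the homeobox gene Zfhx3 and the PAS-domain gene Npas3 had 1 each.

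Other founders of the lineage had none. Nkx2-1 had 11 merged regions, all without a CTX peak, but none was called in all 4 MGE lists. Of these, chr12:56534900-56535886 had 717 and 720 bp called in the KCl libraries and no peak in the unstimulated ones. Others went the opposite way, such as chr12:56471786-56472240, with 395 and 432 bp in the unstimulated libraries and no peak in the KCl ones. The region over a start, chr12:56536298-56537133, had 444 and 451 bp in the unstimulated libraries, 789 bp in KCl library 2 and none in KCl library 1. Further away, chr12:56470232-56470982 had 751 and 553 bp in the unstimulated libraries, 655 bp in KCl library 2 and none in KCl library 1. Lhx8, a LIM homeodomain factor of ventral forebrain neurons, had a single peak of 568 bp in MGE unstimulated library 1. The 4 Dlx genes, homeobox genes of all GABAergic progenitor zones, had no MGE-restricted region and 4 CTX-restricted ones. Over the regions assigned to Dlx2 the called length averaged 2.60 ± 0.774 kb in MGE and 8.80 ± 1.79 kb in CTX libraries (SD, n = 4). The 3 CTX-restricted regions among them lay 63.4, 79.1 and 89.1 kb above the gene. At the gene, chr2:71545447-71546703 was called in all 8 lists. In MGE KCl and unstimulated libraries it had 1041 and 1117 bp and 510 and 917 bp. In CTX KCl and unstimulated libraries it had 1039 and 1232 bp and 674 and 1253 bp.

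GABA handling was marked in both cultures. Gad1 and Gad2, which encode the enzymes that make GABA, and Slc32a1, the vesicular transporter, had no MGE-restricted region. The start of Gad1 lay between 2 regions called in all 8 lists, 0.227 and 0.069 kb away. That of Slc32a1 lay 0.231 kb from a region called in 4 MGE and 3 CTX lists and 0.3 kb from one called in 2 MGE lists and no CTX list. The start of Gad2 lay in a region called in 4 MGE and 2 CTX lists. Regions assigned to Gad2 had 5.96 ± 1.58 kb called in MGE and 3.36 ± 1.40 kb in CTX libraries (SD, n = 4). Slc6a11, a GABA transporter gene best known from astrocytes, had 3 regions just above its span with 1.15 and 1.22 kb in KCl and 1.15 and 1.23 kb in unstimulated libraries. Their mean ranks of fold enrichment within the MGE lists were low, at the 0.0682th, 1.34th and 0.084th percentiles. The closest span does not show which gene a region acts on. Abat, which encodes the enzyme that breaks GABA down, had 1 region.

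Interneuron subtype markers were the list with the highest share, at 11 of 21 genes (52.4%) and 19 regions, against 5 genes with a CTX-restricted region. Neuropeptide genes were among them. Sst had 1 region of 309 and 416 bp in KCl and 250 and 267 bp in unstimulated libraries, with both KCl values above both unstimulated ones. Npy and Tac1, which encode neuropeptide Y and substance P, had 2 regions each. The region above Cort, described with its sequence, lay 0.161 kb from the gene, and Cort had no peak in any CTX list. Nxph1, which encodes a neurexin ligand, had 4 regions, with 2.76 and 3.43 kb in KCl and 2.11 and 3.11 kb in unstimulated libraries, which overlapped. The other genes with 2 regions each were Kcnc2, a fast potassium channel subunit of fast-spiking cells, Igf1, an insulin-like growth factor, and Grin3a, an NMDA receptor subunit. Kcnmb2, Crhbp and Lypd6 had 1 each. Kcnc2 and Grin3a also had 2 CTX-restricted regions each, and Nxph1 had 1. Regions assigned to Grin3a had 3.2 ± 0.679 kb called in MGE and 2.97 ± 1.39 kb in CTX libraries (SD, n = 4). Those of Kcnc2 had 6.34 ± 1.78 kb in MGE and 2.97 ± 1.67 kb in CTX libraries.

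Genes of interneuron migration and axon growth had regions at 8 of 25 members (32%) but CTX-restricted regions at 14 (56%). Erbb4, the neuregulin receptor that guides MGE interneurons, held 7 of the 19 MGE-restricted regions and no CTX-restricted one. Its regions had 4.48 and 4.56 kb of peaks in KCl and 3.77 and 4.0 kb in unstimulated libraries, with the KCl values higher. Over all regions assigned to Erbb4, 20.7 ± 4.39 kb was called in MGE and 9.69 ± 1.90 kb in CTX libraries (SD, n = 4). The Slit receptor gene Robo2 had 5 MGE-restricted and 5 CTX-restricted regions. Dcc, a netrin receptor gene, had 2 MGE-restricted regions, and Cxcr4 and Ackr3, which encode receptors of CXCL12, Nrg1, Plxna4 and Unc5c had 1 each. Dcc also had 4 CTX-restricted regions, Nrg1 and Plxna4 had 2 each and Unc5c had 1, while Cxcr4 and Ackr3 had none.

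**Figure D2:**
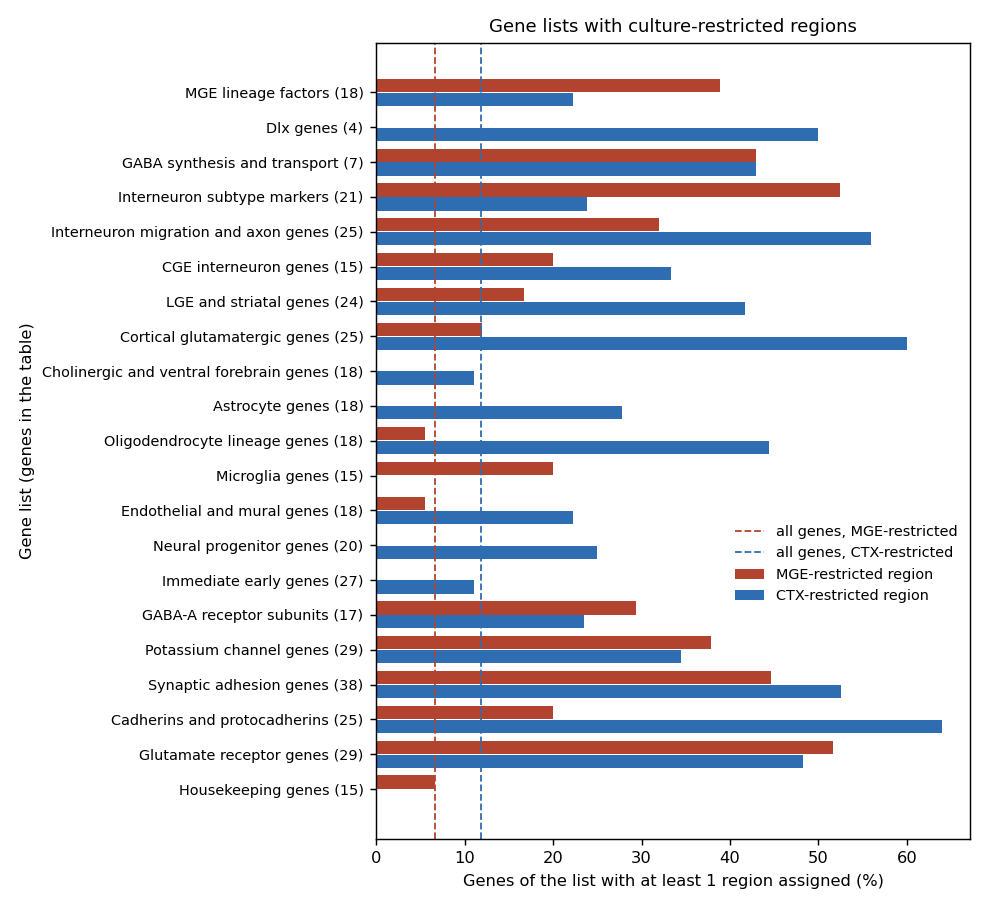
Share of genes (%) in each of 21 gene lists with at least 1 MGE-restricted region (red) or CTX-restricted region (blue), with the number of genes in brackets; dashed lines mark all 21631 protein-coding genes. Interneuron subtype markers have MGE-restricted regions at 52.4% of genes, cortical glutamatergic genes CTX-restricted regions at 60%.

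Lists of other cells served as comparison. Cortical glutamatergic genes had MGE-restricted regions at 3 of 25 genes (12%), Sox5, Cux1 and Lhx2, and CTX-restricted regions at 15. Interneuron genes of the caudal ganglionic eminence had them at 3 of 15, Cck, Adarb2 and Reln. Genes of the lateral eminence and striatum had them at 4 of 24, Pde10a, Meis2, Rarb and Sp9. Astrocyte, neural progenitor, immediate early and cholinergic lists had none. The oligodendrocyte and endothelial lists had 1 gene each, Lhfpl3 and Cdh5, and the housekeeping list Eef1a1. Microglia genes had regions at 3 of 15, the receptor gene Csf1r, the phosphatase gene Ptprc and the transcription factor gene Irf8, and no CTX-restricted region. The summed called length of the microglia list was 262 and 262 bp per Mb called in MGE KCl, 461 and 420 in MGE unstimulated, 161 and 193 in CTX KCl and 181 and 177 in CTX unstimulated libraries. MGE libraries were higher throughout, with 5 to 9 of the 15 genes called, against 2 to 6 in CTX libraries. Of the list, Cx3cr1, C1qb, C1qc, Itgam and Spi1 were not called in any MGE list. In no CTX list were Csf1r, Irf8, Aif1, Tmem119, C1qa, Cx3cr1, C1qc, Itgam and Spi1 called. Whether microglia contribute to other MGE-restricted regions was not tested.

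Receptor, channel and adhesion genes, many of them long, were also frequent. Glutamate receptor genes had MGE-restricted regions at 15 of 29 members (51.7%) and CTX-restricted ones at 14 (48.3%), or 35 and 40 regions. The MGE-restricted ones were led by the kainate receptor genes Grik1 and Grik2 with 6 each and no CTX-restricted region, then Grid1 with 5 and the kainate receptor partner Neto1 with 3. Regions assigned to Grik1 had 13.8 ± 3.66 kb called in MGE and 4.10 ± 1.42 kb in CTX libraries (SD, n = 4). GABA-A receptor genes had MGE-restricted regions at 5 of 17 and CTX-restricted ones at 4. There were 5 MGE-restricted regions at Gabrg3, 3 at Gabrg1, 2 at Gabra5 and 1 at Gabrb1. Gabrb1 had 3 CTX-restricted regions and Gabrg3 had 1, while Gabrg1 and Gabra5 had none. Potassium channel genes had MGE-restricted regions at 11 of 29 and CTX-restricted ones at 10, or 23 and 21 regions. The MGE-restricted ones included 7 at Kcnma1, the large-conductance calcium-activated channel, 5 at Kcnh7 and 2 each at Kcnc2 and Kcnip1. Kcnc2 also had 2 CTX-restricted regions and Kcnip1 had 1, while Kcnma1 and Kcnh7 had none. Synaptic adhesion genes had MGE-restricted regions at 17 of 38 and held 56 regions, with 8 each at Nrxn3 and Tenm2, 7 at Cntn3 and 6 at Cntn5. CTX-restricted regions were found at 20 of the same 38 genes, whose median span is 386 kb. Cntn5 had 11 CTX-restricted regions, Nrxn3 had 5 and Tenm2 had 4, while Cntn3 had none. Cadherin and protocadherin genes had MGE-restricted regions at 5 of 25 and CTX-restricted regions at 16. Cdh13 had 4 MGE-restricted regions, Pcdh9 had 3 and Cdh22 and Cdh4 had 2 each. CTX-restricted regions numbered 6 at Cdh13, 4 at Pcdh9, 1 at Cdh22 and 5 at Cdh4.

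The genes with the most regions were Negr1, an IgLON adhesion gene, and Pde4d, a cAMP phosphodiesterase gene, with 11 each. Negr1 regions held 6.41 and 6.88 kb of peaks in KCl and 7.08 and 5.91 kb in unstimulated libraries. Elavl2 had 9, the proteoglycan gene Spock3, Tenm2 and Nrxn3 had 8 each, and Kcnma1, Wwox and Erbb4 had 7 each. Most of these genes are long, but Elavl2 spans 189 kb and held 7.07 and 8.01 kb of restricted peaks in KCl and 7.47 and 6.35 kb in unstimulated libraries. Over the regions assigned to Spock3, called length averaged 13.3 ± 5.97 kb in MGE and 1.35 ± 0.377 kb in CTX libraries (SD, n = 4), and no CTX-restricted region was assigned to it. Negr1, Elavl2, Kcnma1, Wwox and Erbb4 had none either, while Pde4d, Tenm2 and Nrxn3 had 3 to 5. Of the 1447 genes, 482 had at least 2 regions and 47 at least 5. There were 505 genes with both kinds of region, 34.9% of those with an MGE-restricted and 19.7% of those with a CTX-restricted one.

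Many of the regions had a near neighbour. Of the 3041, 29.2% lay within 10 kb of another, and windows of 5 Mb held a median of 5. Chromosome 8 held 7.76% of them, against 4.81% of CTX-restricted regions and 5.37% of all merged regions. The fullest window, at 60 to 65 Mb of chromosome 8, held 29 regions, 8 of them at Spock3, and 5 CTX-restricted ones. The windows at 110 to 115 and 115 to 120 Mb of the same chromosome held 22 each, at Cntnap4, Maf, Wwox and Cdh13 among others. The window around Elavl2, at 90 to 95 Mb of chromosome 4, held 19 MGE-restricted regions and 0 CTX-restricted ones among 130 merged regions.

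MGE-restricted regions were distal. Only 58 of 3041 (1.91%, exact binomial interval 1.45 to 2.46%) lay within 2 kb of the start of a protein-coding gene, against 5.04% of 5491 CTX-restricted regions (4.48 to 5.66%) and 65.5% of 12960 regions called in all 8 lists (64.7 to 66.3%). The intervals cover counting error only and regions near each other are not independent. More than 50 kb from any start lay 62.1% of MGE-restricted, 55.3% of CTX-restricted and 16.4% of shared regions. The median distance was 78.3 kb for MGE-restricted and 62.7 kb for CTX-restricted regions. Inside a gene span lay 48.2% of MGE-restricted regions, and 760 (25%) had no protein-coding gene within 100 kb. Where a gene had no entry in the promoter table, both ends of its span counted as starts.

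**Figure D3:**
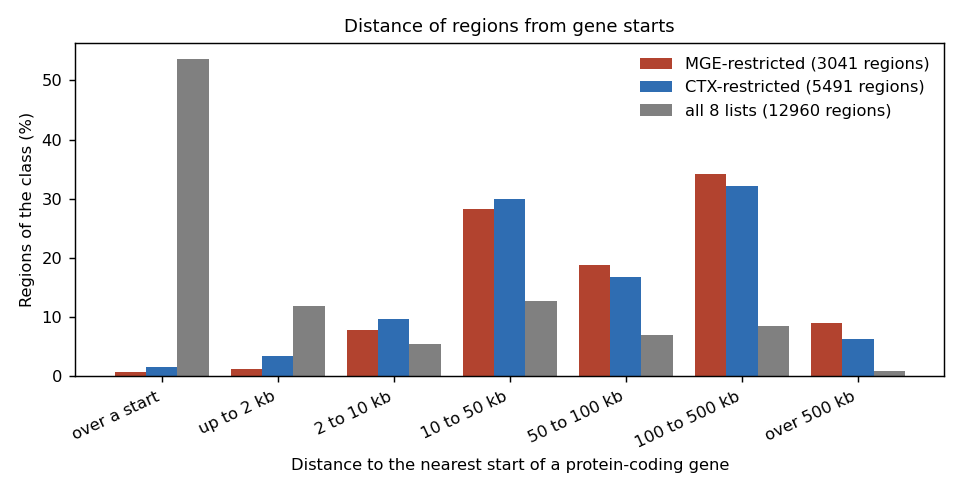
Share of regions (%) by distance to the nearest start of a protein-coding gene for MGE-restricted regions (red), CTX-restricted regions (blue) and regions called in all 8 lists (grey). Regions over a start make up 53.7% of those shared by all lists but 0.691% of MGE-restricted regions.

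Among the 58 near a start, several genes outside the naming rule were picked after their values were seen. The HMG-box gene Tox2 had a region of 1874 bp over its start, with 1261 and 1375 bp called in KCl and 1809 and 1595 bp in unstimulated libraries, so both KCl values were lower. Vax1, a ventral forebrain homeobox gene, had 1438 and 1433 bp in KCl and 1483 and 1112 bp in unstimulated libraries. Regions also covered starts of Cntnap3, the glycine receptor gene Glra3, the serotonin receptor gene Htr7 and a late start inside Nrxn3. Of 1005 miRNA hairpins in RefSeq, 1, Mir30c-1 in the span of Nfyc, lay in an MGE-restricted region, at chr4:120769265-120770188. That region had 340 and 430 bp called in KCl and 714 and 881 bp in unstimulated libraries, again with both KCl values lower. The mature miRNAs, from RefSeq on GRCm38.p6, carry these seeds (bases 2 to 8, capitals), which differ. The region is a mark on chromatin and gives no miRNA level.
mmu-miR-30c-5p: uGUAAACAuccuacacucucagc
mmu-miR-30c-1-3p: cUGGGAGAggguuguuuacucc

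Over the whole class, peak strength was near the middle of the lists. Single named regions differed widely in mean rank of fold enrichment. Low ones were at the 0.095th percentile at Lhx6, 0.847th at Ackr3 and 1.70th at Vax1. High ones were at the 68.4th at Cort and 75.6th at the start of Elavl2. Widths ran from 282 to 2657 bp with a median of 826 bp, against 873 bp for CTX-restricted and 1446 bp for shared regions. The median rank of the authors' deposited fold enrichment within the MGE lists was at the 44.7th percentile, and 13 regions ranked above the 90th. The 10 of highest rank were 455 to 1065 bp wide, and 6 of them had no protein-coding gene within 100 kb. The first, chr1:148568322-148568831, had fold enrichments of 6.53 and 7.56 in KCl and 5.30 and 4.94 in unstimulated libraries and lay 1354 kb from the nearest start. Of the 10, those with a gene were near or in Spertl, Ctnna2, Cacna1a and Olfr1234. The widest 10 included one inside Scn1a, the sodium channel gene of fast-spiking interneurons, with 1697 and 1965 bp called in KCl and 1046 and 1352 bp in unstimulated libraries. Others of that group lay in or near Gm572, Clec16a, 9130023H24Rik, Ccdc86, Vac14, Ablim3 and Nrg2.

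The border of the class was soft. The weakest of the 4 MGE peaks had a median −log10 q of 2.70, and 294 regions kept a −log10 q of at least 5 in all 4 lists. With that minimum set for CTX peaks as well, the class held 481 regions, at 309 genes and 7 of the 50 identity genes. Just inside the rule lay regions near Gprin3, Nufip2 and Cntnap5a and 2 without a gene, whose weakest MGE peak had a −log10 q of 1.34 to 1.38. Just outside lay regions called in all 4 MGE lists and in 1 CTX list. There were 898 of these, and the single CTX peak came from CTX KCl library 2 in 430 and from CTX unstimulated library 2 in 371, the lists with the most peaks. The weakest of them lay near Col4a1, Lama3 and Fcrl6 and at 2 places without a gene. A further 2811 regions had peaks in 3 MGE lists and no CTX peak. The nearest CTX peak was a median of 10.9 kb from an MGE-restricted region and within 500 bp of 191.

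**Figure D4:**
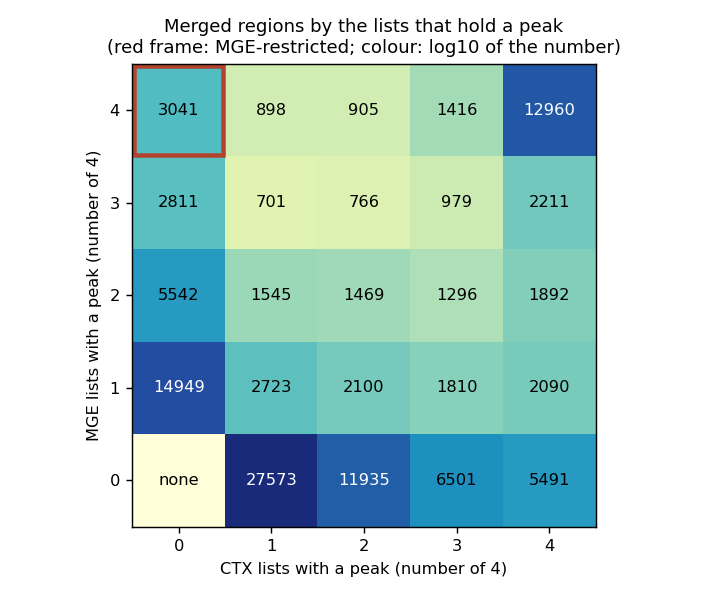
Number of merged regions by how many of the 4 MGE lists (vertical) and of the 4 CTX lists (horizontal) hold a peak. The 3041 MGE-restricted regions stand in the red frame, next to 898 regions with 1 CTX peak and above 2811 with 3 MGE peaks.

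The contrast of KCl and unstimulated MGE libraries was not used by the rule, and it was compared over libraries. The rule is still not independent of KCl, since it left out every region with a peak in a CTX KCl list. Regions that gain length with KCl in both cultures can thus be missing from the class but stay among the 19220. How far this shapes the shares below was not tested. The called length of a region was longer in both KCl libraries than in both unstimulated ones at 675 of 3041 MGE-restricted regions (22.2%), against 30.8% of all 19220 regions called in all 4 MGE lists. It was shorter in both at 595 (19.6%), against 12.9%. Longer calls were thus less frequent, and shorter calls more frequent, among MGE-restricted regions than in the whole set. The shares shifted in steps with the number of CTX lists that also held a peak. Longer calls were found at 22.2% with none, 25.6% with 1, 27.3% with 2, 29.9% with 3 and 33.6% with all 4, and shorter calls at 19.6, 18.7, 17.3, 14.8 and 10.4% in the same order. Within classes of mean called length, chosen after the data were seen, the contrast ran the same way. The largest class, 500 to 750 bp with 1240 MGE-restricted regions, had 23.8% longer and 20.6% shorter calls among them. Regions of that class with any CTX peak had 32.4% and 11.8%. The class of 1000 to 1500 bp held 221 MGE-restricted regions, with 19.5% longer and 23.5% shorter calls. Those with any CTX peak had 34.1% and 11.5% there. Among MGE-restricted regions, shorter calls outnumbered longer ones only in the classes above 1000 bp. No region was tested singly. A two-sided exact permutation test of 2 KCl and 2 unstimulated libraries gives no p below 0.333.

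**Figure D5:**
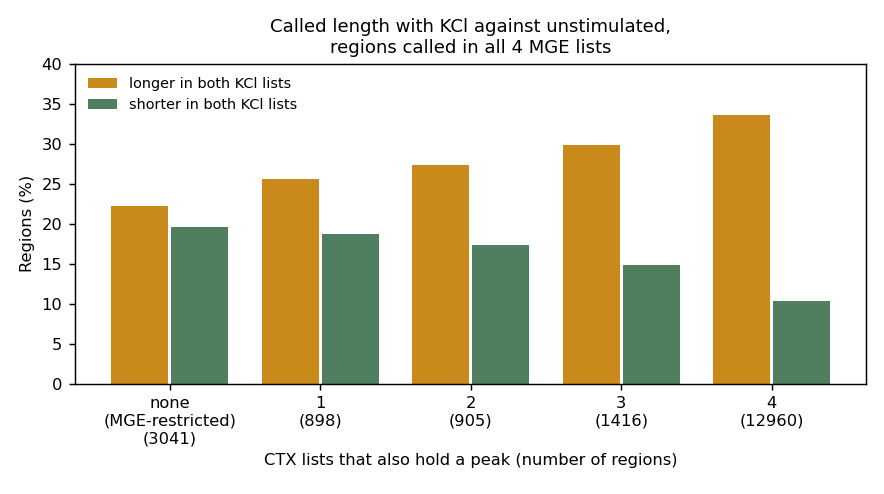
Share of regions called in all 4 MGE lists (%) whose called length was longer (ochre) or shorter (green) in both MGE KCl libraries than in both MGE unstimulated libraries, by how many CTX lists also hold a peak. Longer calls make up 22.2% of MGE-restricted regions and 33.6% of regions shared with all CTX lists.

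Summed over all MGE-restricted regions, 84.8 and 62.9 kb per Mb called lay in them in KCl libraries and 86.5 and 86.2 kb in unstimulated libraries. The means were 73.9 ± 15.5 in KCl and 86.3 ± 0.229 in unstimulated libraries (SD, n = 2), and the difference of -12.5 kb per Mb gave an exact permutation p of 0.333, the smallest possible. KCl library 2 made most of it. Without that library the difference was -1.55, and without KCl library 1 it was -23.4. In plain length the sums were 1918 ± 138 kb in KCl and 1903 ± 126 kb in unstimulated libraries (exact permutation p = 0.667, n = 2). KCl library 2 had the longest list, 32.0 Mb against 21.5 Mb in KCl library 1. Its called length was also highest for progenitor genes, at 1265 bp per Mb called, against 655 in KCl library 1 and 728 and 731 in unstimulated libraries. Astrocyte genes showed 1037 bp per Mb there, against 571 in KCl library 1 and 395 and 632 in unstimulated libraries. The microglia list had 262 and 262 bp per Mb in KCl libraries and 461 and 420 in unstimulated libraries, lower in both KCl libraries, and the regions at Csf1r and Irf8 were among those with shorter calls in both. The part of these cells in the KCl comparison was not tested. Without KCl library 2, longer calls made up 33.1% of MGE-restricted regions, against 36.2% of all 19220, and shorter calls 38.4% against 35.8%. Shorter calls outnumbered longer ones there, at 1167 against 1008 regions, and also without unstimulated library 2, at 1123 against 987. Measured by the rank of the deposited fold enrichment in place of called length, 20.7% of MGE-restricted regions were higher and 19.3% lower in both KCl libraries, near the 21.1% and 21.3% of all 19220.

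Among regions whose groups did not overlap, the called length was highest in KCl relative to unstimulated libraries near Rergl, Nfib, Ednra and Dpp10 and at a place on chromosome 17 without a gene. The region 71.6 kb below Nfib, a gene for a nuclear factor I protein, had 1376 and 1382 bp called in KCl and 379 and 395 bp in unstimulated libraries. That inside Dpp10, which encodes a partner of Kv4 potassium channels, had 744 and 989 bp in KCl and 301 and 237 bp in unstimulated libraries. It was lowest in KCl relative to unstimulated libraries at Kirrel3, Dynlrb2, Cav3 and Myoc and on chromosome 17. The region in Kirrel3, a synaptic adhesion gene, had 305 and 248 bp in KCl and 1277 and 1098 bp in unstimulated libraries. Among MGE lineage factors, 6 of 22 regions were longer, those at Maf, Sox6 and Tcf12 among them, and 5 shorter, at Lhx6 and Maf among others. Maf had regions of both kinds. Synaptic adhesion genes had 16 longer and 4 shorter of 56, glutamate receptor genes 7 and 4 of 35, and interneuron subtype markers 3 and 3 of 19. These are read against 22.2% longer and 19.6% shorter over all 3041 MGE-restricted regions and 30.8% and 12.9% over all 19220 regions. The shares describe the libraries at hand.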

How the data were processed

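H3K27ac was precipitated with the antibody ab4729 and sequenced in reads of 50 bp, and each of the 8 libraries gave 1 peak list. Groups come from sample titles. The submitters' processing notes name MACS3 3.0.0a7, Bowtie2 2.3.3, deepTools 3.4.3 and cutadapt 1.18, with mm10 as the build. Settings and any input control: not given in the sources used here. Per the file headers and names, peaks are broad, unfiltered and called separately in each library. Each peak has a score, a fold enrichment (a linear ratio), a −log10 p and a −log10 q, as the authors deposited them. They served here for ranking, filtering and description inside each list alone. Read counts are unknown, so no interval on a region's acetylation can be given.

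Peaks were merged with pandas 2.3.3 and numpy 2.4.6, leaving out 29 peaks that lie on other chromosomes. A library's called length in a region is the number of its bases in peaks, and called bp or kb per Mb is that length divided by the total the library called. Regions went to the nearest of 21631 protein-coding gene spans up to 100 kb away (RefSeq, GRCm38.p6), the shorter gene where spans overlapped. Starts came from the RefSeq promoter table for 17274 genes, and both span ends were used for the other 4357. Shares carry exact Clopper-Pearson intervals at 95%. The summed called length was tested by an exact two-sided permutation of 2 against 2 libraries with scipy 1.17.1, and region counts were set beside all regions called in the 4 MGE lists. The merging, the rule and the comparison of lengths were tested on simulated lists.

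Genes were named by a rule: the 10 regions of highest mean fold-enrichment rank, the 10 widest, the 10 genes with most regions, all genes with a region on the 5 interneuron lists and up to 4 on each other list, the 5 most lengthened and 5 most shortened with KCl, and 5 just inside and 5 just outside the class. Some genes that the rule names are not reported here. The regions and the 21 gene lists were chosen with earlier results of these data known. The replicate numbers were not taken as pairs of MGE libraries, and the labels do not say whether they are. Alternatives varied the merging distance, the −log10 q minimum, the overlap, equal called bases, bins of 500 bp, the distances to genes, the replicate block and each library in turn.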

Additional observations from a re-analysis of the deposited data

How the results depend on the processing

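The number of MGE-restricted regions depended on peak strength. With a −log10 q of at least 5 in every list there were 481, near 309 genes, 7 of them on the identity lists, with 119 longer and 87 shorter after KCl and 2.70% within 2 kb of a start. With that minimum in MGE lists alone there were 294. Runs of at least 2 bins of 500 bp, chosen after seeing the data, gave 275. Within 1 kb of a start lay 1.41%, within 5 kb 4.67%, and with equal called bases 4.07% within 2 kb; the cause was not tested.

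The KCl difference in summed length, -12.5 kb per Mb called, turned to 5.20 with equal called bases (exact permutation p = 0.667, n = 2) and to 15.7 kb without division by the called bases. It was -12.5 with the replicate block, whose 2 pairs gave -1.71 and -23.2. Under the block, 886 regions were longer and 818 shorter. Same-numbered MGE libraries did not deviate together over the 3041 regions (correlation 0.0051), so the numbers were not taken as pairs. A correlation of called lengths cannot show whether they shared a preparation. The lower share of longer and higher share of shorter calls than in all regions called in the 4 MGE lists was also found with equal called bases, the stricter q, the block and without each MGE library in turn. By rank of fold enrichment it was not, at 20.7% higher and 19.3% lower against 21.1% and 21.3%. In each of these settings the class was still chosen in part by the CTX KCl lists.

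Leaving out each library in turn gave 3076 to 3995 regions, 1.89 to 2.28% near starts, 1461 to 1810 genes and 21 to 25 identity list genes. Longer calls then numbered 987 to 1268 and shorter calls 905 to 1167, with more shorter than longer ones without KCl replicate 2 (1008 longer, 1167 shorter) and without unstimulated replicate 2 (987 longer, 1123 shorter). The KCl difference ranged from -23.4 to -1.55. Read depth is unknown, and the longest lists, CTX replicate 2, hold most of the single CTX peaks at the border of the class.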

Other observations

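Other data at these loci lay outside the class. A region over a start of Igf1, an activity-regulated growth factor gene, was called in all 4 MGE lists and in 2 CTX lists, and so is not MGE-restricted. On chromosome 10 at 87858234 to 87861283 it had 2221 and 3050 bp called in MGE KCl, 318 and 284 bp in MGE unstimulated, 0 and 786 bp in CTX KCl and 0 and 552 bp in CTX unstimulated libraries. The 2 MGE-restricted regions assigned to Igf1 lay 94.3 and 93.1 kb below the gene, with 0.880 and 0.943 kb in KCl and 0.825 and 0.774 kb in unstimulated libraries. The region over the start was chosen after its values were seen.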
